A study of Arabidopsis thaliana with 6 samples.

Results

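The genes described here are 26 protein-coding genes of the Arabidopsis thaliana plastid genome whose products are not subunits of the photosynthetic complexes. They were taken as the probe sets of an Affymetrix ATH1 array that list 1 plastid-encoded gene whose symbol does not start with psa, psb, pet, atp, ndh or rbcL, and they stand among 22746 probe sets tested. By role, 8 encode proteins of the small ribosomal subunit (rps), 7 encode proteins of the large ribosomal subunit (rpl), 4 encode subunits of the plastid RNA polymerase (rpo), and 7 are the remaining genes accD, ccsA, cemA, clpP, matK, ycf3 and ycf4. The genes rpl2, rpl23, rps7, rps12, ycf1 and ycf2 are listed on probe sets with 2 loci each and were left out by the rule.

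Total RNA from mature pollen of soil-grown plants (growth room at 21 °C and 75% humidity) was measured on 6 arrays, 2 in each of 3 groups, all in the Col-0 background. The TF1 line is the insertion line SAIL_1168_C11, the TF2 line is the insertion line SALK_018864, and wild type is the Col-0 stock N1092. Each line stands for 1 insertion, the labels do not name the gene that it disrupts, and plant age is given only as a growth stage. The labels do not say that replicates came from separate plants or pollen collections, so the p-values measure no more than the spread between these arrays, and that spread may be technical.

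Plastids keep a small genome and their own machinery to express it. Its genes are read by a bacterial-type RNA polymerase, whose core is encoded by rpoA, rpoB, rpoC1 and rpoC2 in the plastid itself, and by phage-type polymerases that are imported from the nucleus and that transcribe rpoB, rpoC1 and rpoC2. Plastid ribosomes of bacterial type translate the messages, with some ribosomal proteins encoded in the plastid and the others in the nucleus. Pollen plastids are not green, and in most flowering plants plastids are not passed on through the male line. Standard labelling on this array type starts from poly(A) tails, which most plastid messages lack, so a plastid signal also depends on how such RNA is primed.

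Every one of the 26 genes read lower in pollen of both lines than in wild-type pollen. The median signal over the 26 was 97.8 and 125 on the TF1 arrays, 47.2 and 49.0 on the TF2 arrays, and 704 and 496 on the wild-type arrays. Both arrays of each line lay below both wild-type arrays for 26 of 26 genes in TF1 and for 26 of 26 in TF2, where 27.7% and 27.3% of all probe sets did so. In limma 24 genes fell in TF1 and 23 fell in TF2, and 0 rose in either line, with an unadjusted p under 0.05 for 26 of 26 in each. Over all probe sets tested, 4.3% were called lower and 5.27% higher in TF1, and 7.82% lower and 6.69% higher in TF2. An unadjusted p under 0.05 was reached by 21% of them in TF1 and by 26.1% in TF2. The median log2 change of the 26 genes was −2.36 in TF1 and −3.32 in TF2, beside −0.05 and 0.02 over all probe sets. Both lines were set against the same pair of wild-type arrays.

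The calls in TF1 rested on the variance model. Without the intensity trend 0 of 26 genes passed in TF1, with an unadjusted p under 0.05 for 26 and adjusted p-values of 0.0521 to 0.154 for the 24 genes called with the trend. In TF2 23 genes passed in limma without it, at adjusted p-values of 0.0107 to 0.0414. With the trend those of the 23 genes were 2.75e-08 to 0.000282. Single arrays also decided TF1 calls, since 17 genes passed without wild type replicate 1, 19 without wild type replicate 2, 18 without TF1 line replicate 1 and 22 without TF1 line replicate 2. In TF2 23 or 24 passed whichever array was left out. In bulk RNA, fewer plastids or cells that carry the transcripts and less RNA in each of them cannot be told apart.

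**Figure D1:**
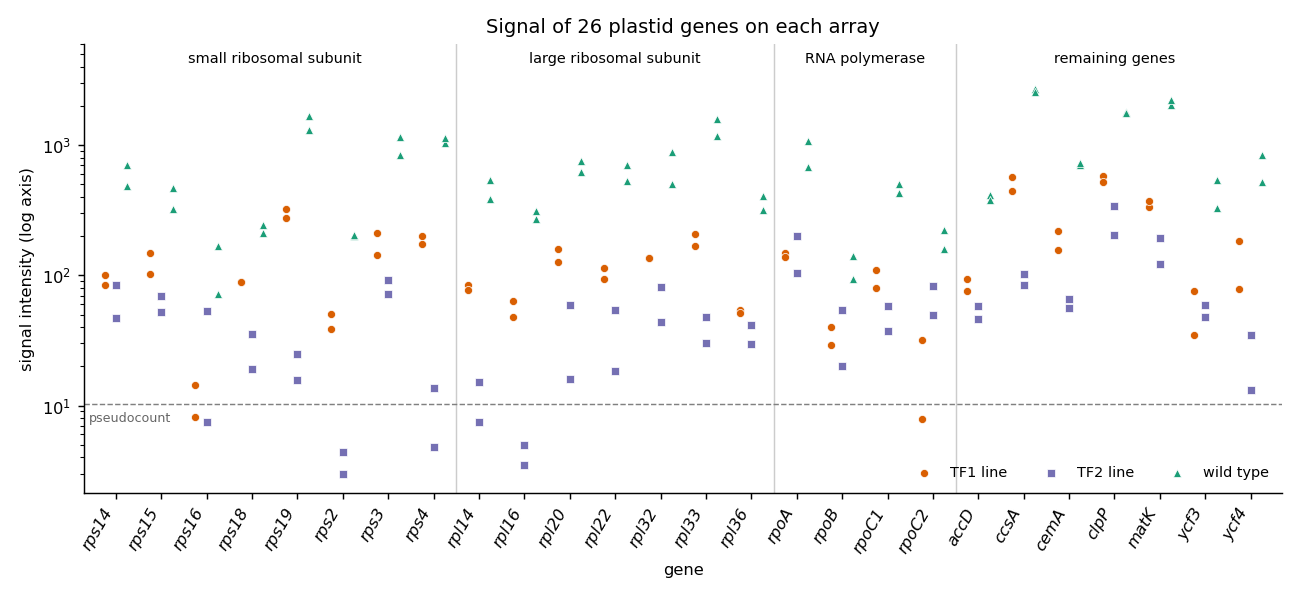
Signal intensity (log axis) of the 26 plastid genes on each of the 6 arrays, with genes in 4 role groups and 1 point per array. The wild-type points lie above the points of both lines for every gene, and the dashed line marks the pseudocount of 10.3.

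Markers of other cells and controls moved on the same arrays. Of 14 nuclear leaf mesophyll markers 7 were measured, among them RCA of Rubisco activation and the antenna genes LHCB4.1 and LHCB4.2, and all 7 were called lower in TF1 and all 7 in TF2. Their summed signal was 326 to 367 in TF1, 379 to 409.6 in TF2 and 4626 to 4912 in wild type, and none was at 0. Of 8 vegetative cell markers 4 were measured, with a summed signal of 10413 to 12060.1 in TF1, 11088 to 12335 in TF2 and 6941 to 7005 in wild type. ANX1, ANX2 and ACT12 rose and AtVEX1 fell in each line, and the sperm histone gene MGH3 rose in each line. Without the intensity trend, 3 probe sets of the whole array were called higher in TF1 and 143 in TF2. The rises named here therefore cannot all hold in TF1 under that fit. No tapetum marker was called in limma (0 of 2). At an unadjusted p under 0.05 this was also 0 of 2 in each line against wild type, and 1 of 2 between TF2 and TF1. The 3 measured of 7 sperm markers summed to 1391 to 1426 in TF1, 1281 to 1469 in TF2 and 647 to 773 in wild type, and the 2 measured of 10 tapetum markers to 43.8 to 103 in TF1, 62.8 to 98.5 in TF2 and 42.0 to 48.6 in wild type. The control probe set for 25S ribosomal RNA read 260.2 and 2749 on the TF1 arrays, 9968 and 8717 on the TF2 arrays, and 478 and 324 on the wild-type arrays. Several other controls ran lower in the lines. That for 5S ribosomal RNA read 206 and 128 in TF1, 72.3 and 38.2 in TF2, and 584 and 447 in wild type. The control at the 3′ end of GAPDH read 229.6 and 225 in TF1, 92.6 and 139 in TF2, and 794 and 719 in wild type, and that at the 3′ end of actin read 157 and 190.4 in TF1, 93.9 and 84.6 in TF2, and 624 and 636 in wild type. At the 5′ end of actin the order was different, with 102 and 172 in TF1, 229 and 349 in TF2, and 104 and 84.8 in wild type. The ubiquitin control at the 3′ end stayed between 3842 and 5055 on all 6 arrays. That in the middle of ubiquitin read 976 and 885 in TF1, 1452 and 1182 in TF2, and 934 and 1064 in wild type. The source of the leaf marker signal was not tested, nor was the part of these markers and controls in the results on plastid genes.

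Of the 8 genes of the small ribosomal subunit, 7 fell in TF1 (median −2.34) and 7 fell in TF2 (median −3.23), and their changes in TF2 ran from −5.85 to −1.85, the widest range of the 4 role groups in that line. The protein of rps4 binds the ribosomal RNA early in assembly of the subunit. Its signal was 199 and 176 in TF1, 4.82 and 13.7 in TF2, and 1040.0 and 1139 in wild type. It changed by −2.48 on the log2 scale in TF1 (SE 0.28, adjusted p = 0.00018) and by −5.85 in TF2 (SE 0.28, adjusted p = 1.29e-07). The groups did not overlap, and TF2 replicate 1 lay below the pseudocount of 10.3, at which differences are compressed.

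The protein of rps19 sits in the head of the small subunit. Its signal was 277 and 324 in TF1, 15.8 and 24.8 in TF2, and 1665 and 1300.3 in wild type. The changes were −2.26 in TF1 (SE 0.23, adjusted p = 9.2e-05) and −5.61 in TF2 (SE 0.23, adjusted p = 4.31e-08). The groups did not overlap, and both TF2 signals lay below the median signal of their arrays (35.6 and 37.4), so that the size of the fall in TF2 is uncertain.

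At the other end, rps18 read 88.4 and 88.8 in TF1, 19.1 and 35.3 in TF2, and 242 and 213 in wild type. Its change of −1.26 in TF1 was the smallest among the 26 genes and passed narrowly (adjusted p = 0.0471), while the change in TF2 was −2.69 (adjusted p = 0.000243). The TF1 call of rps18 was lost with a pseudocount of 1 (adjusted p = 0.081), quantile normalization (0.143), median centring (0.0939) or the replicate number as a block (0.0506). It was also lost when either TF1 array or either wild-type array was left out (0.154 to 0.345).

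The signal of rps16 was 14.3 and 8.17 in TF1, 7.45 and 53.4 in TF2, and 169 and 72.5 in wild type. Its replicates lay far apart in TF2 and in wild type, and it was not called in TF1 (−2.51, SE 0.75, adjusted p = 0.0585) or in TF2 (−1.85, SE 0.75, adjusted p = 0.137). The TF1 difference passed with only the 4 arrays of TF1 and wild type in the fit (adjusted p = 0.0227). It also passed with the larger pseudocount (0.0481), when either TF2 array was left out, and on brighter probe sets only (0.0301). That filter counts the wild-type arrays, where rps16 was highest, so it gives no separate support. Under 9 of 14 alternatives the TF1 difference did not pass.

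The remaining rps genes fell in both lines. For rps14 the signal was 101 and 84.6 in TF1, 83.8 and 47.3 in TF2, and 707 and 490.2 in wild type, with changes of −2.54 and −3.02. For rps2 it was 38.8 and 50.8 in TF1, 2.98 and 4.41 in TF2, and 202 and 203 in wild type, with changes of −1.95 and −3.92. The TF2 signals of rps2 lay below the pseudocount, and the table carries no detection calls to say whether they exceeded background. Its call in TF1 (adjusted p = 0.0337) was lost when either TF1 array or either wild-type array was left out (0.0923 to 0.331), with a pseudocount of 1 (0.109), quantile normalization (0.0899) or median centring (0.051). The changes in TF1 and TF2 were −2.43 and −3.44 for rps3 and −1.59 and −2.50 for rps15.

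All 7 genes of the large ribosomal subunit fell in TF1 and all 7 fell in TF2, with medians of −2.36 and −4.02. Their changes in TF1 stayed in a narrow range, −2.81 to −2.19, and in TF2 they ran from −4.82 to −3.03. The gene rpl33 encodes a small protein that tobacco can do without under standard growth. Its signal was 207 and 169 in TF1, 48.0 and 30.3 in TF2, and 1579.7 and 1186 in wild type. The changes, −2.81 in TF1 (SE 0.25, adjusted p = 3.44e-05) and −4.82 in TF2 (SE 0.25, adjusted p = 1.73e-07), were the largest of the rpl genes in both lines, and the groups did not overlap.

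For rpl36, which encodes a very small protein of the subunit, the signal was 54.6 and 51.1 in TF1, 41.6 and 29.8 in TF2, and 411 and 319 in wild type. It changed by −2.56 in TF1 and by −3.03 in TF2, the smallest fall of an rpl gene in that line. For rpl20 the signal was 127 and 159 in TF1, 16.1 and 59.0 in TF2, and 757 and 619.6 in wild type. It changed by −2.19 in TF1 (SE 0.38), the smallest there and not called without either wild-type array or without TF1 line replicate 1, and by −4.02 in TF2 (SE 0.38).

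The genes rpl14 and rpl16 came down to signals around or under the pseudocount in TF2. The signal of rpl16 was 47.7 and 63.8 in TF1, 3.47 and 4.98 in TF2, and 313 and 269 in wild type, and the groups did not overlap. For rpl14 the signals were 84.3 and 77.3 in TF1, 15.1 and 7.47 in TF2, and 543 and 387 in wild type. The TF1 calls of rpl14 and rpl16 were lost without wild type replicate 1, and that of rpl16 also without wild type replicate 2 or TF1 line replicate 1. The changes of rpl14, rpl16, rpl22 and rpl32 in TF2 were −4.46, −4.37, −3.84 and −3.27.

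Of the 4 RNA polymerase genes, 3 fell in TF1 (median −2.34) and 2 fell in TF2 (median −1.99). The gene rpoA encodes the alpha subunit, on which the core enzyme assembles. Its signal was 149 and 138 in TF1, 104 and 201 in TF2, and 1077 and 676 in wild type. Its changes were −2.49 in TF1 (SE 0.29, adjusted p = 0.000237) and −2.47 in TF2 (SE 0.29, adjusted p = 0.000102), and the arrays of the lines overlapped.

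The genes rpoB, rpoC1 and rpoC2 encode the beta, beta′ and beta″ subunits, which form the catalytic part. For rpoB the signal was 40.2 and 29.3 in TF1, 54.3 and 20.2 in TF2, and 141 and 94.2 in wild type. Its arrays did not overlap with wild type, but neither −1.49 in TF1 (SE 0.53, adjusted p = 0.112) nor −1.50 in TF2 (SE 0.53, adjusted p = 0.083) passed. For rpoC1 the signal was 80.4 and 109 in TF1, 37.6 and 58.5 in TF2, and 508 and 430.4 in wild type, and it fell in both lines, by −2.20 and −3.06 (adjusted p = 0.000537 and 2.2e-05).

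The gene rpoC2 read 32.1 and 7.94 in TF1, 83.2 and 49.8 in TF2, and 161 and 223 in wild type. Both TF1 arrays lay below both TF2 arrays, and TF1 line replicate 2 lay below the pseudocount. It fell in TF1 (−2.84, SE 0.50, adjusted p = 0.00283), although not once wild type replicate 2 was left out (0.108). It was not called in TF2 (−1.41, SE 0.50, adjusted p = 0.0851). In TF2 the difference passed with only the 4 arrays of TF2 and wild type in the fit (0.0224). It also passed without TF1 line replicate 2, with the larger pseudocount (0.0421) and on brighter probe sets only (0.0485). Under 10 of 14 alternatives it did not pass. For rpoB the TF1 difference passed with only the 4 arrays of TF1 and wild type in the fit (0.0437) and without TF2 line replicate 2. Its TF2 difference passed on brighter probe sets only (0.0452) and without TF2 line replicate 1. In each line the rpoB difference did not pass under 12 of 14 alternatives. The filter for brighter probe sets counts the wild-type arrays, where rpoB and rpoC2 were highest, so it gives no separate support.

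The 7 remaining genes all fell in both lines, with medians of −2.36 in TF1 and −3.37 in TF2. The gene accD encodes a subunit of the plastid acetyl-CoA carboxylase, which makes the precursor of fatty acids. Its signal was 94.5 and 75.2 in TF1, 46.3 and 58.2 in TF2, and 413 and 380.5 in wild type, and it changed by −2.10 and −2.71 (SE 0.28 each). The gene clpP encodes a catalytic subunit of a plastid protease. It read 576 and 524 in TF1, 205 and 339 in TF2, and 1814 and 1756 in wild type, with changes of −1.68 (SE 0.20, adjusted p = 0.000256) and −2.71 (SE 0.20, adjusted p = 2.89e-06). Its change in TF1 was the smallest of these 7 genes.

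The gene matK encodes the plastid's own intron maturase, which helps to splice group II introns. It read 335 and 371 in TF1, 123 and 193 in TF2, and 2032 and 2232 in wild type. The changes were −2.56 (SE 0.20, adjusted p = 1.28e-05) in TF1 and −3.70 (SE 0.20, adjusted p = 2.44e-07) in TF2, and no groups overlapped.

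The other 4 of the remaining genes serve the thylakoid or the envelope, although their symbols fall outside the photosynthesis prefixes. The gene ccsA, whose protein is needed to attach haem to c-type cytochromes, read 575 and 442 in TF1, 102 and 84.8 in TF2, and 2722 and 2574 in wild type. Its changes of −2.37 in TF1 (SE 0.17, adjusted p = 8.26e-06) and −4.68 in TF2 (SE 0.17, adjusted p = 2.75e-08) had the lowest adjusted p-values of all 26 genes in both comparisons. The gene ycf3, which encodes an assembly factor of photosystem I, read 75.5 and 34.9 in TF1, 59.5 and 48.1 in TF2, and 537 and 328 in wild type. It fell in TF1 (−2.79, SE 0.38) and in TF2 (−2.75, SE 0.38), and the arrays of the lines overlapped. The changes in TF1 and TF2 were −2.36 and −4.37 for ycf4, also an assembly factor of photosystem I, and −1.91 and −3.37 for cemA, which encodes a protein of the inner envelope. The TF1 calls of ycf4 and rps15 were lost without wild type replicate 1 or TF1 line replicate 1.

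**Figure D2:**
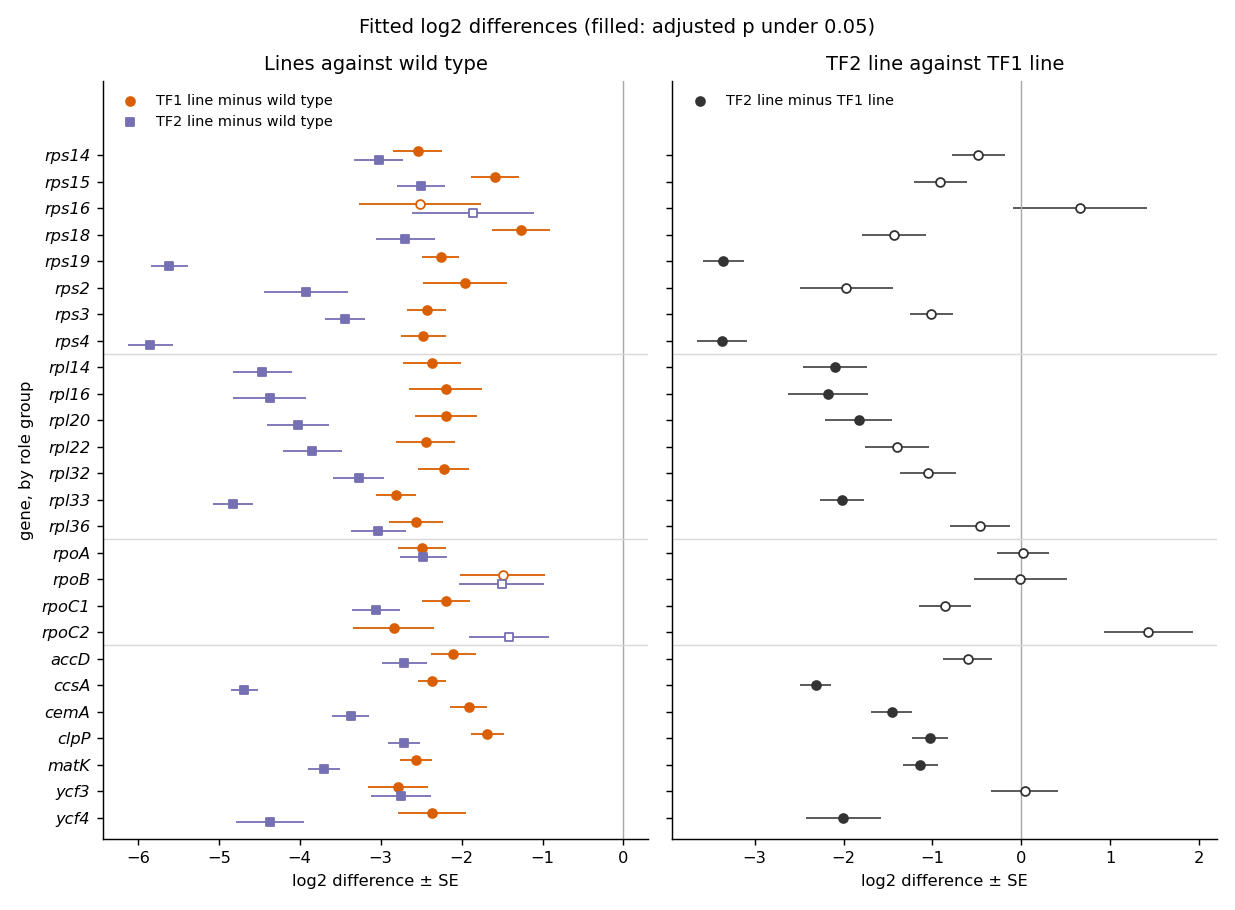
Fitted log2 differences with their standard errors for the 26 genes, the 2 lines against wild type on the left and TF2 against TF1 on the right, with filled symbols for an adjusted p under 0.05. In TF1 the 26 differences lie between −2.84 and −1.26, in TF2 between −5.85 and −1.41, and the rpo genes lie near or above 0 on the right except rpoC1 at −0.86.

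The third comparison asked which of these genes differed between the lines. In limma 11 of 26 were lower in TF2 than in TF1 and 0 were higher, with an unadjusted p under 0.05 for 19 (12.6% of all probe sets), while 1.42% of all probe sets were called lower and 0.211% higher. The median log2 difference of the 26 genes was −1.09, beside 0.05 over all probe sets, and for 21 genes both TF2 arrays lay below both TF1 arrays (18.5% of all probe sets). The 11 were rps4, rps19, rpl14, rpl16, rpl20, rpl33, ccsA, cemA, clpP, matK and ycf4.

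The largest differences between TF2 and TF1 were −3.37 for rps4 (SE 0.28, adjusted p = 4.76e-05) and −3.35 for rps19 (SE 0.23, adjusted p = 1.03e-05), followed by −2.31 for ccsA (SE 0.17, adjusted p = 2.17e-05). The controls for 25S and 5S ribosomal RNA and for the 3′ ends of GAPDH and actin, given above, also differed between the TF2 and TF1 arrays, and their part in these differences was not tested. The 3 calls held under every alternative but the fit without the intensity trend. Without that trend 0 of 26 passed, with an unadjusted p under 0.05 for 18 and adjusted p-values of 0.110 to 0.349 for the 11 genes. With only the 4 arrays of the lines in the fit, or without either wild-type array or either TF1 array, 4 genes passed.

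For the rpo genes the median difference between TF2 and TF1 was 0.00373, and 0 of 4 passed in limma, with an unadjusted p under 0.05 for 2. Those 2 ran in opposite directions, rpoC1 at −0.86 (SE 0.29, adjusted p = 0.229) and rpoC2 at 1.43 (SE 0.50, adjusted p = 0.238). The differences of rpoA and rpoB were 0.019 (SE 0.29, adjusted p = 0.989) and −0.012 (SE 0.53, adjusted p = 0.996), and those of ycf3 and rps16 were 0.036 (SE 0.38) and 0.66 (SE 0.75). The signs of rpoA, rpoB, ycf3 and rps16 turned under some alternatives. The difference between the rpo genes and the ribosomal genes was not tested.

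By role, 4 of 7 rpl genes (median −1.83), 2 of 8 rps genes (median −1.22) and 5 of 7 remaining genes (median −1.14) were lower in TF2 than in TF1. On the linear scale, the mean signals ran wild type above TF1 above TF2 for 22 genes, and wild type above TF2 above TF1 for rpoA, rpoB, rpoC2 and rps16. On the log2 scale of the fit rpoB and ycf3 changed sides, by differences between TF2 and TF1 far under their SEs.

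Neighbours on the plastid genome did not always move by the same amount, as values of 3 rows of neighbours show, picked with the results known. In the row rps2, rpoC2, rpoC1 and rpoB, whose rpo genes are transcribed together, the changes in TF1 ran from −2.84 to −1.49 and in TF2 from −3.92 (rps2) to −1.41 (rpoC2). In the long row of rpoA, rpl36, rpl14, rpl16, rps3, rpl22 and rps19, the 7 changes in TF1 lay within 0.36 of each other, from −2.56 to −2.20. In TF2 the same row spread over 3.14 log2 units, from −5.61 (rps19) to −2.47 (rpoA). For rpl33, rps18 and rpl20 the range was 1.55 in TF1 and 2.13 in TF2. Each gene was read by 1 probe set.

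**Figure D3:**
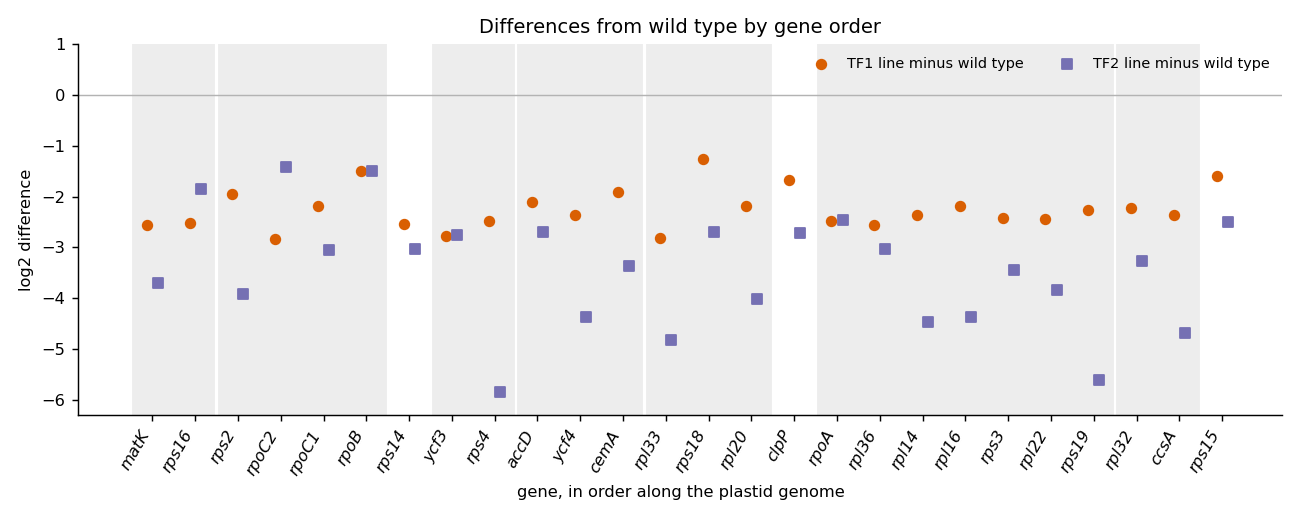
Log2 differences from wild type of the 26 genes in their order along the plastid genome, with TF1 as circles and TF2 as squares. Shading joins genes with at most 1 other protein-coding gene between them. In the row from rpoA to rps19 the TF1 points lie within 0.36 of each other and the TF2 points spread over 3.14.

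The 43 plastid-encoded photosynthesis genes on the array also read lower in both lines. Of them, 43 were called lower in TF1 (median −2.53) and 43 in TF2 (median −3.90), and 17 were lower in TF2 than in TF1 (median −1.14). The signal of the 26 genes summed to 3929 and 3973 in TF1, 1409 and 1683 in TF2, and 18346 and 21811 in wild type. Relative to the summed signal of the photosynthesis genes this was 0.631 and 0.600 in TF1, 0.589 and 0.704 in TF2, and 0.488 and 0.516 in wild type, so the arrays of the lines lay above both wild-type arrays. No test was made of this ratio.

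Relative to the summed signal of the 7 leaf markers, the 26 genes came to 12.2 and 10.7 in TF1, 3.72 and 4.11 in TF2, and 4.44 and 3.97 in wild type. TF1 lay apart from the other groups on this ratio. Between TF2 and TF1, 0 of the 7 leaf markers were called in limma, and the median was −0.58, with 4 of 7 differences negative. The 2 with an unadjusted p under 0.05 in limma, SBPASE (1.12) and PRK (0.82), were both higher in TF2. Signals of different probe sets are not on a common scale, so these ratios can be compared between arrays only.

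Nuclear genes for the same plastid machinery were listed in small part. Of 40 nuclear-encoded plastid ribosomal proteins 9 were measured. In TF1 1 of them fell, AT3G54210 of ribosomal protein L17 (−1.45, adjusted p = 0.0439), and the median was −0.80. In TF2 4 fell, AT2G43030 of protein L3 (−3.21), AT1G29070 of protein L34 (−2.93), AT3G54210 (−2.04) and AT5G65220 of protein L29 (−1.76), and the median was −1.76. Of 14 nuclear Clp protease subunits 5 were measured, with 0 called in either line in limma and an unadjusted p under 0.05 for 2 in TF1 and 1 in TF2 (medians −1.27 and −0.75). The phage-type polymerase gene AT5G15700 stayed below the pseudocount on all 6 arrays. No sigma factor (0 of 6), polymerase-associated protein (0 of 13) or nuclear acetyl-CoA carboxylase subunit (0 of 4) had a probe set listed for it alone.

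Genes of the other organelle genome were lower in part. Of 18 probe sets of 11 mitochondrion-encoded genes, 5 were called lower in TF1 (median −1.68) and 10 in TF2 (median −2.12). The 5 in TF1 were those of nad4, nad4L, cox1 and cox2 and 1 of several nad1 probe sets (−3.42). The other nad1 probe sets were not called in either line. In each line 16 of 18 changes were negative. Uncalled rises were those of 1 nad1 probe set (1.32 in TF1, 1.14 in TF2) and of nad2 (1.26 and 2.07). Between TF2 and TF1 1 of 18 was called, nad4 at −1.12, and the median was −0.20, beside −1.09 for the 26 plastid genes. Whether the plastid genes differ from the mitochondrial ones in this was not tested.

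**Figure D4:**
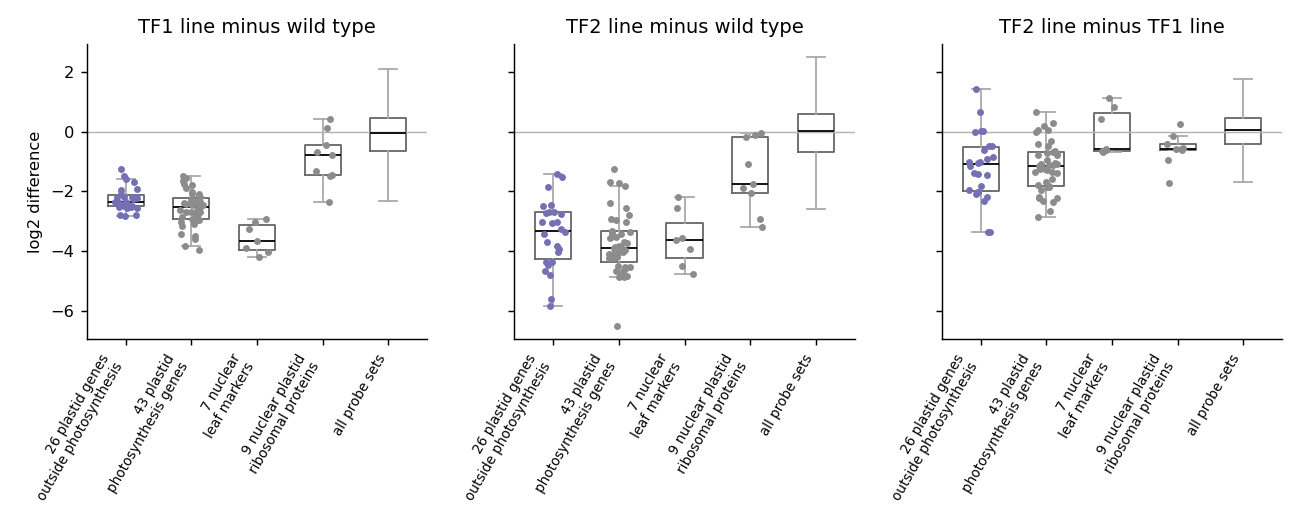
Log2 differences of the 26 plastid genes beside 43 plastid photosynthesis genes, 7 nuclear leaf markers, 9 nuclear-encoded plastid ribosomal proteins and all probe sets, with a panel for each comparison. Boxes span the quartiles with the median as a line, whiskers reach at most 1.5 times the box, and points are probe sets (not drawn for all probe sets). The plastid genes have a median of −2.36 in TF1, −3.32 in TF2 and −1.09 between TF2 and TF1.

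Over the 26 genes, the median absolute log2 difference between the replicates was 0.30 in TF1, 0.57 in TF2 and 0.37 in wild type. Wild type replicate 1 read higher than wild type replicate 2 for 21 of 26 genes, by a median of 0.35, as it did for 33 of 43 photosynthesis genes, whereas over all probe sets the median was −0.03. Without wild type replicate 1 the median change of the 26 genes was −2.09 in TF1 and −3.08 in TF2, and without wild type replicate 2 it was −2.46 and −3.49.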

How the data were processed

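Per the submitters' processing notes, the authors made the values with MAS5 and GCOS, whose versions and settings those notes leave out. The deposited table holds 1 signal intensity per probe set and array on a linear scale, and the mean after trimming 2% at each end was 100.0 on every array, a scaling that was kept. It carries no detection calls. The number of arrays limits the precision.

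Of 22810 probe sets, 64 Affymetrix controls were left out. Genes came from the platform annotation, matched by gene identifier to a RefSeq table (TAIR10.1), used for names and gene order. All 26 members matched on the plastid chromosome. Mitochondrial genes were matched by symbols found on no other chromosome. No sequence was available for the members.

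Signals were tested as log2(signal + 10.3), the pseudocount being the 25th percentile of all values, so changes of dim genes are understated. No filter was used, so that every member was tested. The 6 arrays were fitted together in limma 3.58.1 (R 4.3.3; lmFit, eBayes with an intensity trend, 3 residual degrees of freedom), two-sided, with Benjamini-Hochberg adjustment over 22746 probe sets and a threshold of 0.05; the fit was tested on simulated data. Exact permutation of 2 against 2 arrays cannot go below p = 0.333 and was not run. Alternatives were another pseudocount, a filter, quantile normalization, median centring, no trend, the arrays compared only, a replicate block, and leaving out each array. The filter kept brighter probe sets, those whose mean log2 signal over all 6 arrays, wild type included, was at or above the median. Values on every array are given for the member of each role group with the highest wild-type signal, those with the largest and smallest change in each line, and those not called, and for rps2, rpl14, rpl16 and matK, added after their values were seen. The members and the gene lists were chosen with earlier results of these data known.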

Additional observations from a re-analysis of the deposited data

How the results depend on the processing

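With the replicate number as a block, 23, 23 and 12 members were called for TF1 against wild type, TF2 against wild type and TF2 against TF1. Deviations of same-numbered arrays correlated at −0.01 to 0.03 between groups, which shows no pairing by number. The correlation took in all probe sets, dim ones included, so it cannot exclude a pairing. In TF2 against wild type, all 23 member calls held under every alternative. Without the intensity trend, calls came to 0 members and 64 probe sets in TF1 (unadjusted p under 0.05 for 26 members), 1145 probe sets in TF2, and 0 members and 0 probe sets between TF2 and TF1 (unadjusted p under 0.05 for 18 members). With only the 4 arrays compared, 4 members and 170 probe sets were called between TF2 and TF1. Leaving out 1 array gave 891 to 2380 probe sets in TF1 against 2176 with all arrays, 1659 to 3051 in TF2 against 3301, and 92 to 380 between the lines against 371. It gave 17 to 26 members in TF1, 23 to 24 in TF2 and 4 to 12 between the lines, with member medians of −2.46 to −2.09, −3.49 to −3.08 and −1.41 to −0.98. The larger pseudocount (37.5) moved the TF2 median to −2.74, by its own construction. Median centring made 64.7% of the TF1 calls higher, against 55.1%, and moved the median of all probe sets from −0.05 to 0.10. Between TF2 and TF1 the sign turned for members near 0. It did so for rpoA under median centring (−0.016), for rpoB with the larger pseudocount (0.014) and for ycf3 under quantile normalization (−0.047). Leaving out 1 array gave −0.42 to 0.46 for rpoA, −0.55 to 0.53 for rpoB, −0.43 to 0.50 for ycf3 and −0.26 to 1.58 for rps16. Where no cause is given, it was not tested. Signals under the pseudocount, of 2 members on TF1 line replicate 2 (rpoC2 and rps16) and of 4 and 3 members on the TF2 arrays, have no dependable order.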
